A study of Mus musculus with 16 samples.

Results

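Active promoters without lactylation were 2084 regions of the genome of muscle macrophages, out of 13298 regions with H3K4me3 in every library (15.7%). Here, without lactylation means that no peak of H3K18la, the only lactylation mapped, was called. The regions were chosen from peak lists. A shared region of a mark is the merge of overlapping peaks that holds a peak in all 4 lists of that mark. The 2084 are shared H3K4me3 regions under 6 kb wide that overlapped a shared H3K27ac region and held no peak of H3K18la or H3K27me3 in any list. "Active promoter" is therefore a name for this pair of marks: no gene annotation of the build of the files (GRCm39) was used here, so no gene is named and no gene start was looked up.

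The libraries come from a study of macrophages that enter the ischemic calf muscle of mice, which asked how lactylation of histone H3 lysine 18 (H3K18la) changes while these cells shift from inflammation towards repair. Macrophages positive for CD45, CD11b, F4/80 and CD64 were sorted from C57BL6J wild type males, 8 to 12 weeks old, whose femoral artery had been ligated. CUT&Tag, in which an antibody guides a transposase to a chromatin mark, was run for H3K4me3, H3K27ac, H3K18la and H3K27me3 on cells taken 2 or 4 days post injury (dpi). Each mark has 2 libraries from each of these times. All mice were injured and no uninjured group was analysed here, so each comparison is between the 2 times or between regions. The study calls the replicates biological, but neither it nor the labels say whether they are single mice or pools, so p-values measure the spread between these libraries. The identity of the sorted cells could not be checked against marker genes.

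H3K4me3 (trimethylation of lysine 4) sits at the starts of genes whose promoters are open to transcription, and H3K27ac (acetylation of lysine 27) marks promoters and enhancers in use. H3K27me3 is placed by Polycomb complexes on silenced genes. H3K18la is a lactyl group derived from lactate, a product of glycolysis, and has been described at active promoters and enhancers, so promoters with both active marks and no lactyl peak form a contrasting class.

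The H3K18la lists held 15190 to 27578 peaks and the H3K4me3 lists 16446 to 18413. Peaks of the H3K27ac lists covered 37.8 to 205 Mb. The depth of the libraries is unknown, and the absence of a peak means that none was called, not that the mark was absent. Some lists touch the results below. The longest H3K18la list, that of 2 dpi replicate 1, keeps more regions out of the set than any other list. H3K27ac 4 dpi replicate 1 covered by far the most bases. It is also the only H3K27ac library whose sample code starts with S100, while the other H3K27ac libraries have S143 and all libraries of the remaining marks S035.

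Of the 13298 shared H3K4me3 regions, 10360 overlapped a shared H3K27ac region, 9474 of these were under 6 kb and 8817 of those held no H3K27me3 peak. Among these 8817 active promoters, 2084 (23.6%) had H3K18la in 0 lists, 3510 (39.8%) in 1 to 3 lists and 3223 (36.6%) in all 4. The last set, called lactylated promoters here, is the comparison used below. Of the 1459 regions with H3K18la in exactly 1 list, 1122 had it in the 2 dpi replicate 1 list. Without that list the rule found 3206 regions, among them all 2084.

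The width limit left out 14 regions that otherwise met the rule. The widest members just inside it were chr2:157042361-157048290 (5930 bp, mean H3K4me3 percentile 61.7) and chr5:105125532-105131448 (5917 bp, 57.0). Just outside lay chr3:116387252-116393256 (6005 bp, 82.0) and chr1:13655508-13661522 (6015 bp, 34.95). A percentile is the rank of a region's total signal among all shared regions of its mark within a library, from 0 for the weakest to 100 for the strongest.

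The promoters without lactylation had narrower regions than the lactylated promoters. The H3K4me3 regions of the members had a median width of 2886.5 bp (quartiles 2409.5 and 3438 bp), and the H3K27ac region over them a median of 4240 bp. In the lactylated promoters the medians were 3338 and 8780 bp. Over all shared H3K4me3 regions, of any width, the median was 3076 bp. A wider region has more room to meet an H3K18la peak. How much of the H3K4me3 width difference follows from the rule in this way was not tested. The 2084 members lay over 2015 distinct H3K27ac regions, and 135 of them shared theirs with another member, so their H3K27ac values are not all separate.

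The difference in acetylated length was found in every library. At the members, the median length called as H3K27ac peak was 2154 and 1444 bp in the 2 dpi libraries, replicate 1 first, and 4063.5 and 1869.5 bp in those of 4 dpi. At lactylated promoters the values were 4469, 2969, 8602 and 4277 bp in the same order. The members were lower in 4 of 4 libraries, with a mean difference of -2696.5 ± 1290 bp (SD, n = 4, exact sign-flip permutation p = 0.13, two-sided, the smallest that 4 libraries allow, adjusted p = 0.188 over 9 such comparisons). This design cannot pass 0.05. The strongest H3K27ac position lay a median 115 ± 12.4 bp from the H3K4me3 maximum in the members and 118 ± 22.5 bp in the lactylated set (SD, n = 4, exact sign-flip permutation p = 0.625), with 2 of 4 libraries in each direction.

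Around the H3K4me3 maximum, called peaks fell away within a short distance. At the maximum itself 96.0% of members lay inside an H3K27ac peak (mean of 4 libraries, range 91.0 to 98.5%). At 2 kb to one side, by increasing coordinate, the share was 19.2% (5.61 to 48.6%), against 43.9% (20.9 to 78.9%) for lactylated promoters. At 5 kb it was 8.21 against 24.3%. H3K27ac 4 dpi replicate 1, with its long peaks, gave the upper end of these ranges. Within each library the members were below the lactylated promoters at all 3 positions, at 2 kb by 13.3 against 38.1% and 5.61 against 20.9% at 2 dpi, and by 48.6 against 78.9% and 9.07 against 37.5% at 4 dpi.

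**Figure D1:**
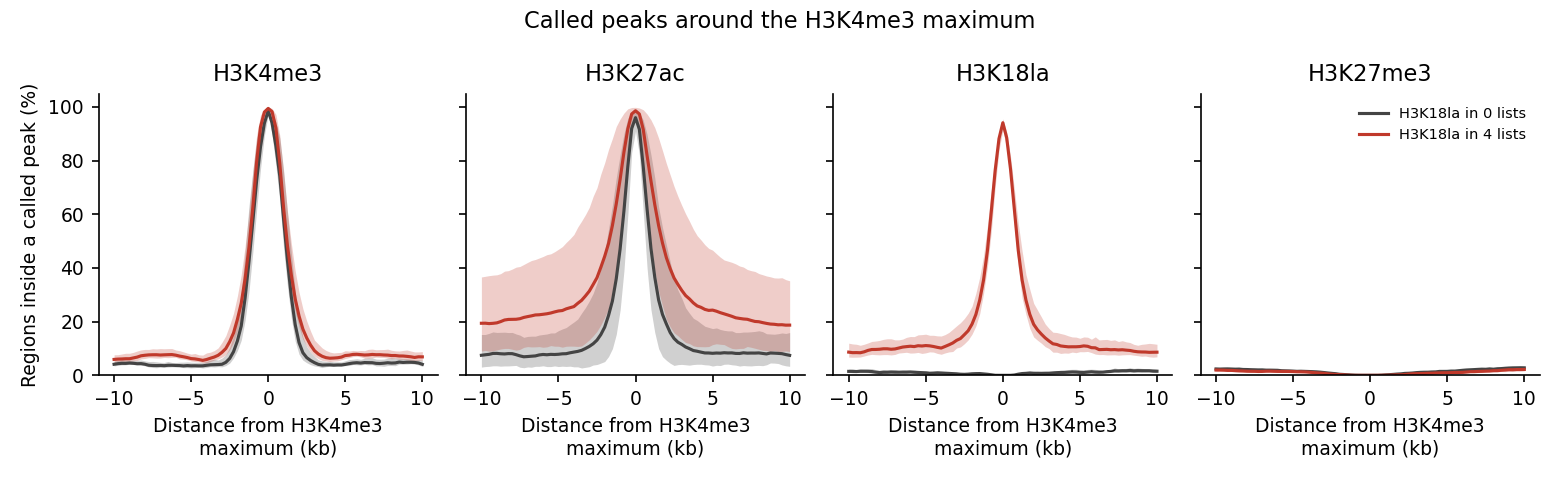
Percent of regions that lie inside a called peak of each mark (y axis) by distance from the H3K4me3 maximum in kb (x axis), for the 2084 active promoters without H3K18la (grey) and the 3223 with H3K18la in all 4 lists (red). Lines are the mean and bands the range of the 4 libraries of a mark. The H3K27ac line of the members is at 19.2% at 2 kb, that of the lactylated promoters at 43.9%. At the maximum H3K18la and H3K27me3 are at 0 in the members by the rule, and at 10 kb they are at 1.54 and 2.78%.

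The nearest H3K18la peak of any list lay a median 24.9 kb from the members (quartiles 9.56 and 53.5 kb). It was under 1 kb away for 79 members (3.79%) and under 5 kb away for 314 (15.1%). The nearest H3K27me3 peak was a median 50.2 kb away, under 5 kb for 173 members (8.30%) against 208 of 3223 lactylated promoters (6.45%). Counting only members with neither an H3K18la nor an H3K27me3 peak within 1 kb left 1959.

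Members often had a member as their nearest H3K4me3 neighbour. This was so for 524 of 2084 (25.1%), compared with 2086 of all 13298 shared regions (15.7%) and 298 of the 3223 lactylated promoters (9.25%). Lactylated promoters had another lactylated promoter next to them in 1259 cases (39.1%). These shares are a description, since neighbouring lactylated promoters can lie under the same H3K18la peak. Edges of neighbouring members were under 1 kb apart in 56 cases, so some neighbours may not be separate promoters.

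Along the chromosomes, the share of active promoters without lactylation was highest on chromosome 4 (177 of 531, 33.3%), followed by 8 (138 of 466, 29.6%) and X (52 of 180, 28.9%). It was lowest on chromosomes 1 (99 of 559, 17.7%) and 13 (75 of 423, 17.7%), leaving aside Y, with 0 of 7. Among all shared H3K4me3 regions, members made up 21.7% on chromosome 4, 19.9% on 8 and 14.5% on X. That share was 15.7% over all chromosomes, so X stood high only among active promoters. Of unbroken runs of members, with no other shared H3K4me3 region between them, 1244 held a single member, 276 held 2, 61 held 3 and 22 held 4 or more.

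The longest run, chosen here after its values were seen, held 13 members on chromosome 4. After the first, at chr4:88635793-88641632, and a step of 38.8 kb, the other 12 stood close together from chr4:88674561-88676712 to chr4:88713949-88716286, a span of 41.7 kb. Their widths were 1863 to 2553 bp. The step from one start to the next had a median of 2.92 kb and ranged from 2.43 to 10.03 kb, with 7 of the 11 steps between 2.5 and 3.5 kb.

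The 12 regions were close in H3K4me3 level. Their mean H3K4me3 percentiles lay between 28.1 and 39.1, so that all were below the middle of the shared regions. The H3K27ac regions over them had mean percentiles of 51.7, 13.4, 62.5, 65.2 and 87.7 in order along the chromosome. There were 5 of these for 12 members because H3K27ac 4 dpi replicate 1 had long peaks there, while the other H3K27ac libraries had separate peaks. In the same order they were 5929, 3143, 9750, 8059 and 17089 bp wide, and a total signal grows with the length it is summed over. These percentiles therefore do not give the acetylation of single members. The H3K4me3 shift of the members from 2 to 4 dpi, explained below, was negative in 11 of 12 (median -0.16). None passed the test, with a smallest limma adjusted p of 0.245 (n = 2 libraries per time). H3K18la was called over the first H3K4me3 peaks after the 12 members in 2 dpi replicate 1 alone, between 43.0 and 46.7 kb from their start. The next H3K4me3 peaks, which began at 48.3 to 48.8 kb, met no H3K18la peak. They met an H3K27me3 peak in both 4 dpi lists.

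**Figure D2:**
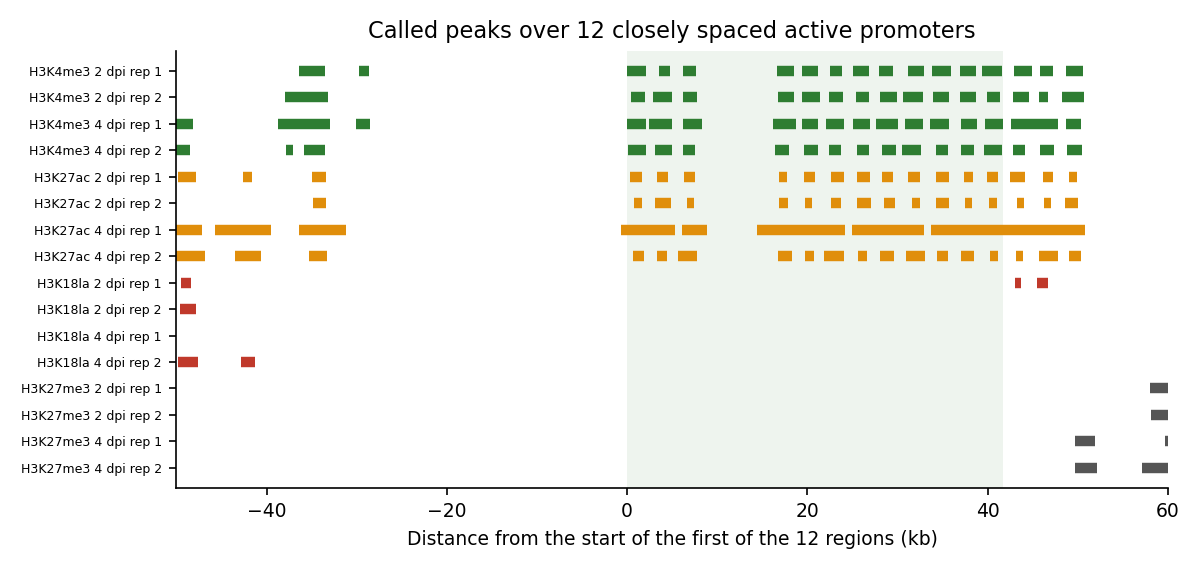
Called peaks in each of the 16 libraries (rows) around the 12 closely spaced members on chromosome 4, with distance in kb from the start of the first of them (x axis) and bars for peaks, coloured by mark. The shaded 41.7 kb hold H3K4me3 and H3K27ac peaks in all libraries of those marks, and none of H3K18la or H3K27me3.

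To ask how strong the marks were where no H3K18la peak was called, percentiles were compared within each library. For H3K27ac, the median percentile of the members was 36.6 and 41.9 at 2 dpi and 24.5 and 32.3 at 4 dpi. That of lactylated promoters was 79.7 and 79.0 at 2 dpi and 76.4 and 79.5 at 4 dpi. Every library thus put the members in the weaker part of the acetylated regions and the lactylated promoters in the stronger part.

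The members were lower in 4 of 4 libraries, with a mean difference of -44.8 ± 6.26 percentile points (SD, n = 4, exact sign-flip permutation p = 0.13, which is the lowest 4 libraries can give, adjusted p = 0.188). Without H3K27ac 4 dpi replicate 1 the difference was -42.5 points. Among promoters with H3K4me3 regions 1.5 to 3 kb wide it was -43.9 points. That window does not match the sets in the length of the H3K27ac regions, whose signal is ranked here. With maximum instead of total signal the difference was -32.0 points, and per called base -22.3. Only 120 members (5.76%) had a mean H3K27ac percentile above 75, compared with 1723 lactylated promoters (53.5%). A weaker signal can come from fewer cells with the mark or from less of it per cell, and in sorted bulk cells these cannot be told apart.

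Acetylation rose in steps with the number of H3K18la lists. The mean over libraries of the median H3K27ac percentile was 33.8 ± 7.35 with 0 lists, 43.1 ± 6.82 with 1, 53.0 ± 5.18 with 2, 61.6 ± 3.09 with 3 and 78.7 ± 1.52 with 4 (SD, n = 4). The order was the same in each of the 4 libraries, although the SDs of neighbouring steps overlap between 0 and 1 lists and between 1 and 2. The steps are a description, with no test between them.

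H3K4me3 did not follow the same steps. Its median percentile in the members was 42.6 and 41.2 at 2 dpi and 47.2 and 48.2 at 4 dpi, and that in lactylated promoters 58.6, 61.8, 54.1 and 54.1. By number of H3K18la lists from 0 to 4 the means were 44.8, 56.0, 63.2, 64.9 and 57.2. By total signal H3K4me3 was highest with H3K18la in 3 lists. By maximum signal and per called base it was highest with 2 lists, at 64.2 and 65.0, and 61.8 and 63.5 with 3.

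In H3K4me3 the members were lower than the lactylated promoters in 4 of 4 libraries, with a mean difference of -12.3 ± 7.11 points (SD, n = 4, exact sign-flip permutation p = 0.13, adjusted p = 0.188). This direction depended on the measure. Per called base the mean difference was -3.01 points, with 2 of 4 libraries in each direction (exact sign-flip permutation p = 0.5, n = 4). In lists cut to their stronger 50% of peaks it was -22.9 points. The 1598 regions without lactylation in those lists shared only 487 with the members. With maximum signal the difference was 1.16 points, negative in both 2 dpi libraries (-1.99 and -7.03) and positive in both of 4 dpi (5.54 and 8.11, exact sign-flip permutation p = 0.875, n = 4). Among regions of 1.5 to 3 kb the members were higher, by 13.2 points (exact sign-flip permutation p = 0.13, n = 4).

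The spread of H3K4me3 was narrower in the members. Of the 2084, 152 (7.29%) had a mean percentile above 75 and 385 (18.5%) one below 25. Of the 3223 lactylated promoters 1081 (33.5%) were above 75 and 825 (25.6%) below 25, so that this set held more of both extremes. Across members, width and mean H3K4me3 percentile had a Spearman rho of 0.55, and the mean percentiles of H3K4me3 and H3K27ac one of 0.24. Both are across regions that share libraries, and a total signal grows with the length it is summed over.

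**Figure D3:**
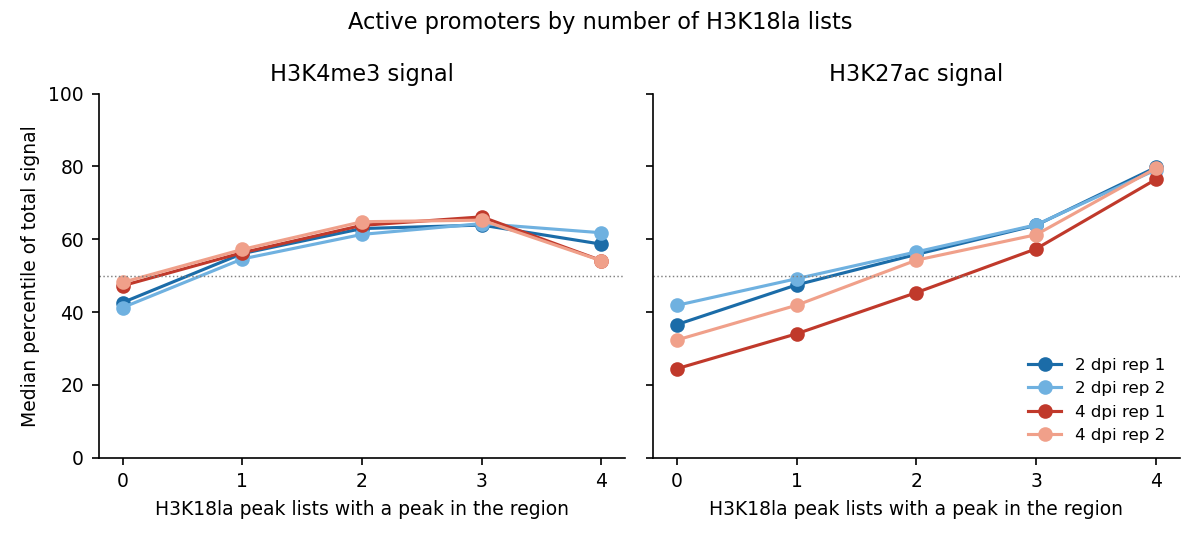
Median percentile of total signal (y axis) of H3K4me3 (left) and H3K27ac (right) in each library, for active promoters by the number of H3K18la lists with a peak in the region (x axis). Points are libraries, blue at 2 dpi and red at 4 dpi, and the dotted line is the middle of all shared regions of the mark. H3K27ac climbs from 33.8 with 0 lists to 78.7 with 4 on average, while H3K4me3 by total signal is highest, at 64.9, with 3.

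The members with the highest H3K4me3 showed that strong H3K4me3 went with very different acetylation. The first was chr7:41147381-41150839 (3459 bp), with H3K4me3 percentiles of 97.8 and 97.5 at 2 dpi and 95.5 and 95.9 at 4 dpi. Its H3K27ac percentiles were 14.9, 12.0, 20.9 and 5.90. It was near the top of one mark and near the bottom of the other in all libraries, with the nearest H3K18la peak 104 kb away.

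The second, chr1:9614538-9619715, had H3K4me3 percentiles of 97.3, 97.6, 96.4 and 95.1 and a mean H3K27ac percentile of 72.1. The third, chr2:140010692-140014262, had 96.5, 96.8, 96.5 and 94.6 and a mean H3K27ac percentile of 57.5. Next came chr15:31599260-31604332 and chr6:67242621-67247775, with mean H3K4me3 percentiles of 93.7 and 93.6 and mean H3K27ac percentiles of 81.6 and 52.5. In these 4 both marks were above the middle.

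The remaining 3 of the leading 8 were chr5:147011755-147016153, chr13:23612715-23617809 and chr8:86024801-86028967, with mean H3K4me3 percentiles of 92.9, 92.6 and 92.6. Acetylation at the one on chromosome 13 was again low, at a mean percentile of 19.02. The regions on chromosomes 5 and 13 had an H3K18la peak 2.67 and 3.93 kb away, and the other 6 none within 30 kb. None of the 8 passed the test between 2 and 4 dpi in H3K4me3 (limma adjusted p = 0.0525 to 0.999, n = 2 libraries per time).

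To ask how the members changed as the macrophages moved from 2 to 4 dpi, the ranks in each library were turned into normal scores and tested with limma over all shared regions of the mark. A shift is the score at 4 dpi minus that at 2 dpi, so it measures a region against the others and not an absolute amount. H3K4me3 rose at 257 members (12.3%) and fell at 42 (2.02%) at a limma adjusted p under 0.05 (n = 2 libraries per time). Over all 13298 regions tested, 7.78% rose and 8.07% fell. Rises were thus more frequent than in the background and falls less so. Regions share the same libraries, so the difference between these shares was not tested.

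The lactylated promoters went the other way, with 122 of 3223 that rose (3.79%) and 436 that fell (13.5%). Promoters with H3K18la in 1 to 3 lists lay between, with 295 of 3510 that rose (8.40%) and 209 that fell (5.95%). The median shift was 0.16 in the members, 0.05 in this middle set and -0.14 in the lactylated promoters, and 0.01 over all regions. Of the members 69.3% had a shift above 0.

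By total signal, the sets were closer in H3K4me3 at 4 dpi than at 2 dpi. The median percentile of the members was 41.9 ± 0.981 at 2 dpi and 47.7 ± 0.659 at 4 dpi (SD, n = 2). Their distance below the lactylated promoters (members minus lactylated) went from -18.3 to -6.40 points. The values of the 2 times do not overlap, but 2 libraries against 2 cannot give an exact permutation p below 0.3333, which is the p found. By maximum signal the sets did not draw together but crossed, as the values per library above show.

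The direction was the same at every level of H3K4me3. In the lowest 25% of shared regions by mean percentile, the median shift was 0.36 in 396 members and -0.30 in 839 lactylated promoters. In the next groups of 25% it was 0.18 against -0.31 and 0.10 against -0.11. In the highest 25%, with 165 members, it was 0.05 against -0.03, where the sets were closest. Over all regions of such a group it stayed between -0.02 and 0.02.

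**Figure D4:**
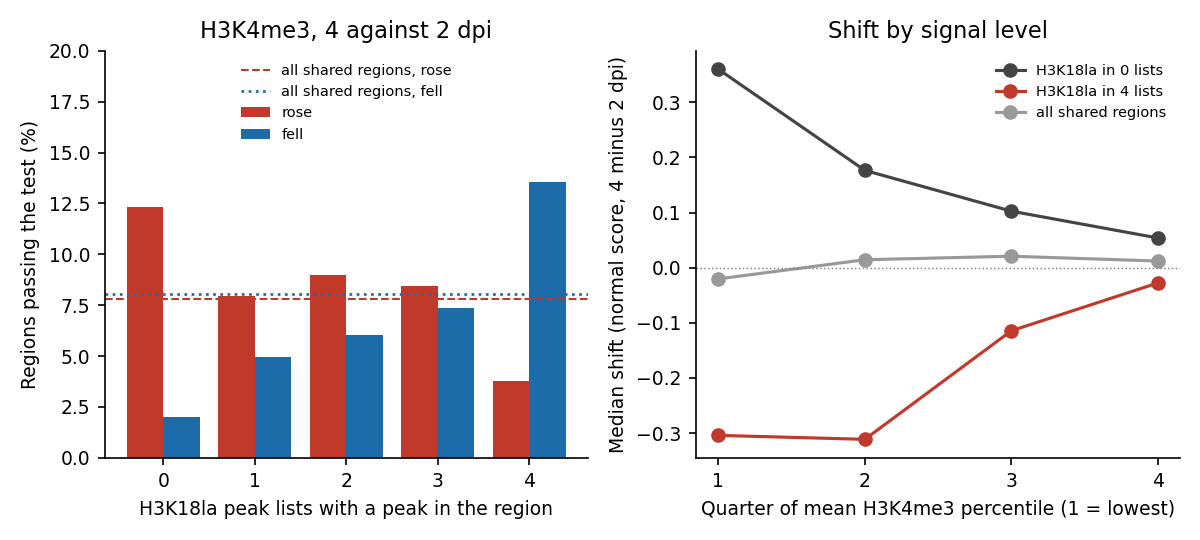
Left, percent of active promoters whose H3K4me3 rose (red) or fell (blue) from 2 to 4 dpi at a limma adjusted p under 0.05 (y axis), by number of H3K18la lists with a peak (x axis), with dashed and dotted lines at the 7.78 and 8.07% of all shared regions. Right, median H3K4me3 shift in normal scores (y axis) by mean H3K4me3 percentile in groups of 25% of the shared regions (x axis), where the members are above 0 and the lactylated promoters below 0 in all 4 groups.

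The number of calls depended on the measure and on the 4 dpi libraries far more than the direction did. With maximum signal 62 members rose (2.98%) and 9 fell (0.432%), against 1.49 and 1.24% of all regions. Per called base 0 rose and 1 fell, against 0 and 0.0376% of all regions. The median shift of the members was 0.13 and 0.17 in these fits, against -0.004 and 0.005 over all regions. Without 4 dpi replicate 1 the counts were 55 (2.64%) and 15 (0.72%), against 2.35 and 4.29% of all regions. Without 4 dpi replicate 2 they were 45 (2.16%) and 5 (0.24%), against 1.8 and 3.56%. In these fits the share of rises was close to the background, and the share of falls below it. A variance fitted without trend and robustness gave 0 calls in all 13298 regions. The median shifts do not depend on the variance fit and stayed at 0.16 in the members and 0.01 over all regions.

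The members that rose were also called over more bases at 4 dpi. Their median H3K4me3 called length was 1768 bp at 2 dpi and 2694 bp at 4 dpi, and it was longer at 4 dpi in 248 of 257. Over all members the medians were 1956.5 and 2465.5 bp, and 1804 (86.6%) were longer at 4 dpi, a time whose replicate 1 had the longest peaks of all H3K4me3 libraries. Of the 257 rises, 246 kept their sign with maximum signal and 219 per called base. The part of called length in the rises was not tested.

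By chromosome, rises among members were most frequent on chromosomes 17 (24 of 109, 22.0%) and 11 (33 of 154, 21.4%). The background of all shared regions there was 11.5 and 16.5%. They were fewest on X (0 of 52) and chromosome 13 (2 of 75, 2.67%), where the background was 2.51 and 1.96%.

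The 8 rises with the smallest adjusted p and no overlap between the times were large. At chr14:31886273-31891602 the H3K4me3 percentile was 13.0 and 27.7 at 2 dpi and 70.8 and 77.6 at 4 dpi (shift 1.51, SE 0.19, limma adjusted p = 0.000798). Ranked by maximum signal, it shifted by 1.14 (limma adjusted p = 0.101), and peaks covered 2.26 and 2.17 kb of it at 2 dpi but 5.33 and 5.01 kb at 4 dpi. H3K27ac went from percentiles 47.3 and 6.05 to 86.7 and 81.0 there, without passing the test (shift 1.80, limma adjusted p = 0.110). Both marks were higher in both 4 dpi libraries, the only one of these 8 regions with a positive H3K27ac shift.

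The second, chr5:34729758-34733153, went from H3K4me3 percentiles 24.8 and 36.9 to 76.0 and 74.8 (shift 1.20, SE 0.16, limma adjusted p = 0.000978). The third, chr7:99875555-99878594, went from 16.03 and 16.12 to 59.0 and 64.3 (shift 1.29, limma adjusted p = 0.0012). H3K27ac at this place was at percentiles 26.2 and 40.3 at 2 dpi and 1.35 and 9.14 at 4 dpi (shift -1.33, limma adjusted p = 0.293). Here the marks moved apart, although the change in H3K27ac did not pass.

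The largest shift among the 8 was at chr9:22066712-22069384, which went from near the bottom of all shared regions, at percentiles 3.94 and 4.42, to 45.1 and 55.7 (shift 1.74, SE 0.25, limma adjusted p = 0.00155). The region chr12:84362844-84366137 went from 17.7 and 13.1 to 60.6 and 55.5, and chr11:97670731-97674418 from 55.1 and 50.6 to 83.8 and 78.9. The remaining ones, chr15:89237880-89241896 and chr2:32176679-32180544, went from mean percentiles of 75.3 and 53.6 at 2 dpi to 93.5 and 80.4 at 4 dpi. All 8 also passed when any one library was left out, and 6 of 8 passed with maximum signal.

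Falls were fewer and smaller. At chr10:81882696-81884975 H3K4me3 went from percentiles 72.4 and 72.9 to 39.5 and 43.3 (shift -0.82, SE 0.14, limma adjusted p = 0.00308), and it also fell with maximum signal (limma adjusted p = 0.0231). At chr13:118522016-118525169 it went from 83.9 and 85.8 to 65.6 and 61.3 (shift -0.69, limma adjusted p = 0.00411). The lowest level was reached at chr8:67312021-67313081, with 47.0 and 39.3 at 2 dpi and 13.1 and 6.91 at 4 dpi (shift -1.13, limma adjusted p = 0.00872). Regions with overlap between the times were not eligible, so the gap between the times in these 3 follows from the choice.

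The other 5 falls were chr5:77240169-77244360, chr13:95508980-95512819, chr2:175213746-175215981, chr14:24540268-24542965 and chr2:150448973-150452353, with limma adjusted p from 0.00998 to 0.0163. Their mean percentiles went from 54.5, 78.2, 52.4, 65.2 and 82.6 at 2 dpi to 23.8, 58.7, 23.3, 40.1 and 66.8 at 4 dpi in the same order. Of the 8 falls 3 passed without any one library, and 4 passed with maximum signal. The regions on chromosomes 8 and 5 had an H3K18la peak 0.535 and 0.531 kb beyond their edge.

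**Figure D5:**
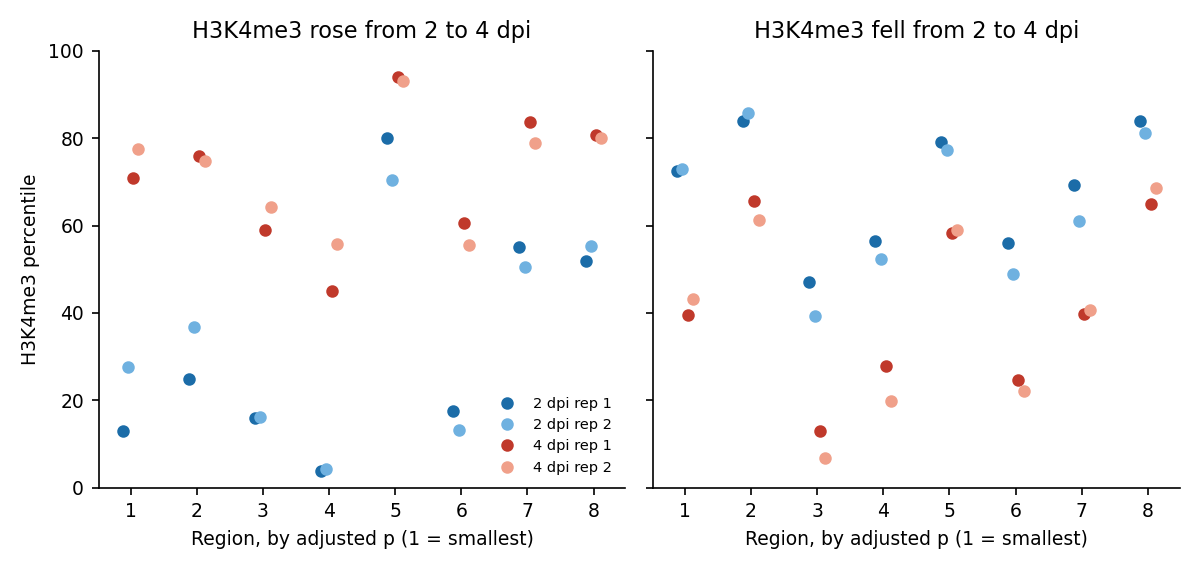
H3K4me3 percentile (y axis) in each of the 4 libraries for the 8 members that rose (left) and the 8 that fell (right) with the smallest limma adjusted p, in that order along the x axis. Blue points are 2 dpi and red points 4 dpi, and in all 16 regions the 2 colours are apart because regions with overlap were not eligible.

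H3K27ac at the members shifted down rather than up, but no member passed the test. Their median percentile was 39.2 ± 3.73 at 2 dpi and 28.4 ± 5.57 at 4 dpi (SD, n = 2). Of 2084 members 75.9% had a negative shift, with a median of -0.30. Promoters with H3K18la in 1 list were close, at 71.0% and -0.24, and those with it in 1 to 3 lists were at 66.2% and -0.18. Over all 13494 shared H3K27ac regions 55.3% were negative and the median was -0.07. limma called 0 members in either direction, against 0.178% of all regions that rose and 0.00741% that fell. At an unadjusted limma p under 0.05, 1.58% of the members were up and 6.86% down, against 8.29 and 5.68% of all regions.

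The shift in H3K27ac moves with 1 library in size. Without 4 dpi replicate 1, the one with another sample code and very long peaks, the median shift was -0.17, against -0.02 over all regions. All 3 libraries left then share a code, so the direction was also seen within it. Without 4 dpi replicate 2 the median was -0.39, and 3 members rose (0.144%) and 9 fell (0.432%), against 0.763 and 0.778% of all regions. Without 2 dpi replicate 1, 11 rose and 0 fell (2.2 and 0.0371% of all regions), and without 2 dpi replicate 2, 3 rose and 0 fell (0.711% and 0 of all regions). With the replicate number as a block, which the labels do not back as a pairing, 14 members rose and 8 fell, against 3.31 and 0.993% of all regions. In the lactylated promoters the median shift was -0.04, or 0.02 without 4 dpi replicate 1.

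The marks were then set side by side in each member. H3K4me3 was up and H3K27ac down in 1118 of 2084 (53.6%), counting signs alone. Taken singly, 69.3% of members were up in H3K4me3 and 75.9% down in H3K27ac, so this pair of signs is frequent without any link between the marks. Of the 257 members at which H3K4me3 rose, 215 (83.7%) had a negative H3K27ac shift, and of the 42 at which it fell 25 did (59.5%), against 75.9% of all members. Across the 2084 members the shifts of the marks had a Spearman rho of -0.07, and of -0.03 across lactylated promoters, so the sizes of the shifts were hardly related from region to region.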

How the data were processed

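The data deposited for the 16 CUT&Tag libraries are lists of peaks on mouse build GRCm39 per the labels (the methods of the study name mm10). The submitters' processing notes name Trim Galore 0.6.6, Bowtie2 2.4.4, SAMtools 1.13 and bedtools 2.30 for the reads and SEACR 1.3 for the peaks of each library, which keeps the top share of enriched blocks. The deposited signal of a peak, its total and its maximum coverage by fragments, was not normalized between libraries by the authors. No read depths were at hand, so counting intervals could not be given.

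Peaks on 21 chromosomes (1 to 19, X and Y) were merged within a mark at an overlap of at least 1 bp. Total signal was summed per shared region and ranked within each library. Normal scores of 2 and 4 dpi were compared with limma 3.58.1 (R 4.3.3, trended and robust variance), with Benjamini-Hochberg adjustment over all shared regions of the mark. Each member took the H3K27ac region with the longest overlap. Set medians were compared within libraries by exact sign-flip permutation tests. The fit was also run on simulated signal, but the outcome is not given here and lends no backing to the calls or to their absence.

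The members, comparisons and lists were chosen with earlier results of these data known. Named regions are the 8 members with the highest mean H3K4me3 percentile, per mark up to 8 rises and 8 falls with the smallest adjusted p whose times do not overlap, and 2 regions on either side of the width limit. The planned shares at gene starts, gene lists and motifs need a GRCm39 annotation and were not run. The same-numbered libraries deviated from their group means with a correlation of -0.0027 in H3K4me3 and 0.09 in H3K27ac, so the numbers were not taken to pair libraries. Labels were followed where the file names number the 4 dpi H3K27me3 replicates the other way round.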

Additional observations from a re-analysis of the deposited data

How the results depend on the processing

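The number of members stayed between 1598 and 2713 under the 5 other ways to set the rule, but lists cut to their stronger 50% of peaks shared only 487 of its 1598 regions with the 2084, and lists of equal length 1726. Leaving out 1 library gave 2088 to 3206, the highest without H3K18la 2 dpi replicate 1. In H3K4me3, members that rose and fell from 2 to 4 dpi numbered 257 and 42. They were 62 and 9 with maximum signal (median shift 0.13 in place of 0.16), 0 and 1 per called base and 0 and 0 without trend and robust variance. With log2 of median-scaled signal, which moved the median of all regions by -0.07, 71 members fell, when 1882 of all 13298 regions fell. Without the lowest 25% of regions the median shift was 0.18. Leaving out 1 library gave 45 to 405 rises, 5 to 53 falls and median shifts of 0.13 to 0.18. Chosen after seeing the data, the rule without H3K18la 2 dpi replicate 1 gave 109 falls among its 3206 regions and a median shift of 0.11. Members of 1.5 to 3 kb, also chosen so, gave 111 rises, 24 falls and a median shift of 0.15. They are a smaller set, so their counts do not compare with those of all members.

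The replicate block, which the labels do not back as a pairing, gave 296 rises and 49 falls in H3K4me3. Over all 13298 regions it gave 1202 and 1199. In H3K27ac it gave 14 rises and 8 falls, where the fit without it called 0. Of all H3K27ac regions 3.31% rose and 0.993% fell under the block, against 0.672 and 0.384% of the members. H3K27ac had 1 rise with log2 of median-scaled signal, and 0 to 11 rises, 0 to 9 falls and median shifts of -0.39 to -0.17 without 1 library. The H3K4me3 difference from lactylated promoters, -12.3 points, was -3.01 per called base and -22.9 in the stronger 50% of each list, and reversed to 1.16 with maximum signal and to 13.2 at 1.5 to 3 kb. Without 1 library it was -14.5 to -9.61, and the H3K27ac difference -47.4 to -42.5. The causes were not tested. Other settings for the share of regions at gene starts were not run, as it needs an annotation. Depth limits every absence: regions whose H3K18la fell under the caller's threshold count as without it.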
